A study of Homo sapiens with 6 samples.

Results

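Integrins and laminins, the receptor and ligand families through which epithelial cells hold on to a basement membrane, were read out in RNA-seq of cells with and without a knockdown of VprBP, whose gene is DCAF1. The members were the protein-coding genes of the count table named ITGA or ITGB with a number or with V, L, M, X, D or E, and those named LAMA, LAMB or LAMC with a number. This gave 34 of the 21494 genes in the table. The 33 described here are 14 integrin alpha subunits, 8 integrin beta subunits and 11 laminin chains, and all counts of members below refer to these 33. The table has 6 samples, 3 carrying a control shRNA (Control sh, genotype WT in the labels) and 3 carrying an shRNA against VprBP (VprBP sh, genotype DCAF1 Knockdown). All 6 are labelled as the cell line G361, a human melanoma line, while the source field of all 6 reads LD611. According to the methods of the study, the VprBP shRNA is a single sequence delivered by a pLKO.1 lentivirus, infected cells were selected with puromycin, and no step that isolates a clone is described. The labels do not say whether replicates are separate cultures, so p-values measure the spread between these samples, which may be technical. ITGA4, ITGA8, ITGA11 and ITGAD had no row in the count table.

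An integrin is a pair of 1 alpha and 1 beta subunit that spans the cell membrane, binding matrix or another cell outside and the actin or keratin skeleton inside. A laminin is a cross-shaped trimer of 1 alpha, 1 beta and 1 gamma chain, numbered by its chains, so that laminin-332 contains LAMA3 and LAMB3. In skin and other stratified epithelia, laminin-332 under the cell is held by the integrin of ITGA6 and ITGB4 in hemidesmosomes, which anchor keratin filaments, and by the integrin of ITGA3 and ITGB1, while laminins with the LAMA5 chain are found in most epithelial and vascular basement membranes.

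The targeted gene was read first. DCAF1 had 688, 893 and 884 estimated counts in the Control sh samples and 681, 488 and 628 in the VprBP sh samples, with the groups apart after normalization. Its mean of 583 ± 154 normalized counts (SD, n = 3) in VprBP sh lay 1.49-fold below the 869 ± 90.6 of Control sh. The edgeR quasi-likelihood test gave an adjusted p of 0.0125, but the difference did not reach the 2-fold limit for a call. A call needed an adjusted p (Benjamini-Hochberg) under 0.05 together with a change of over 2-fold in that test, which covered the 16756 genes that passed a filter on low counts. Of these genes 46.4% were called, 24.5% higher and 22% lower in VprBP sh. At any fold, 76.4% had an adjusted p under 0.05, and 79.5% had groups that did not overlap. Counts of members are set beside these shares. Total counts were 18195949 to 26883948 per sample, and 3 counts, taken as the limit of detection for counting error only, correspond to 2.3 to 3.48 normalized counts. The melanocyte markers fixed for the label check were low in every sample, with MLANA at 1 to 5 counts. The summed level of those in the table was 199 to 236 normalized counts in Control sh against 244 to 308 in VprBP sh. TYR, DCT, SOX10 and S100B had no row in the count table. The 4 basal epithelial markers (KRT5, KRT14, KRT6A and TP63) summed to 166973 to 190193 normalized counts in Control sh but to 2697 to 5080 in VprBP sh. Of the 7 luminal or urothelial markers read, GATA3 rose from 3.07 to 1529 mean normalized counts and KRT8 from 19004 to 38975. UPK1B and UPK2 fell, and KRT7, KRT18 and ELF3 were not called. The pan-epithelial markers were not called, EPCAM having means of 4464 and 6080 and CDH1 of 10117 and 6543, and neither overlapped between the groups. These bulk samples cannot tell fewer cells of a type from less RNA per cell, and the part that the differences in basal and luminal markers have in the results below was not tested. Whether the cells match their label, and whether the groups differ in more than the shRNA, was not tested either.

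Most members expressed in Control sh were lower in VprBP sh, and the median decrease was larger among the laminin chains than among the integrin subunits. Of the 28 members that passed the filter, 16 fell (57.1%, beside 22% of all genes tested) and 4 rose (14.3%, beside 24.5%), while 8 were not called. The groups did not overlap for 25 of the 28, beside 79.5% of all genes tested. Among the 9 laminin chains tested, 7 fell and 1 (LAMA4) rose, and their median log2 fold change was -3.25. Among the 19 integrin subunits tested, 9 fell and 3 (ITGAL, ITGB7 and ITGA10) rose, with a median of -0.90. The median of all genes tested was 0.08. Decreases of more than 16-fold were called for 9 members, beside 8.46% of all genes tested. The 5 members that did not pass the filter were ITGA9, ITGAM, ITGAX, LAMB4 and LAMC3, with at most 15 counts in any sample. The filter asks for counts in 1 group only, so that a member could enter through the group where it was high.

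Together the 33 members took 1.33%, 1.16% and 1.12% of all counts in the Control sh samples and 0.201%, 0.217% and 0.211% in the VprBP sh samples. The share was thus 5.76-fold lower in VprBP sh (1.21% ± 0.11 against 0.21% ± 0.00787, SD, n = 3), with every VprBP sh sample below every Control sh sample. In a two-sided exact permutation test p was 0.1, the lowest value open to a design of 3 against 3. Laminin chains went from 0.547% ± 0.0539 to 0.102% ± 0.00963 of the counts (5.38-fold lower). Integrin subunits went from 0.660% ± 0.0565 to 0.108% ± 0.00255 (6.12-fold lower).

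**Figure D1:**
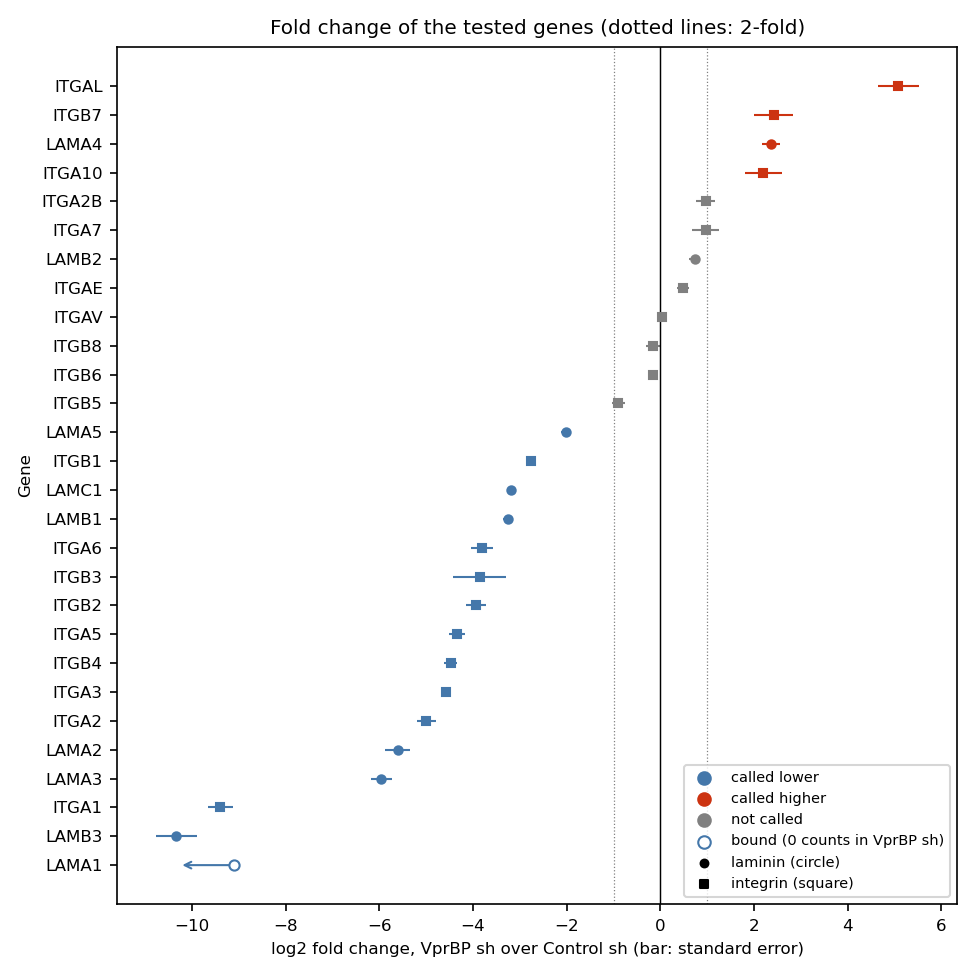
Log2 fold change of VprBP sh over Control sh (x axis) for the 28 tested members (y axis), with bars for the standard error, circles for laminin chains, squares for integrin subunits and dotted lines at a 2-fold change. 16 members lie on the lower side in blue and 4 on the higher side in red, and the open circle of LAMA1, which had 0 counts in every VprBP sh sample, is a bound.

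LAMA3 and LAMB3, chains of laminin-332, were abundant in Control sh, and each fell by 62.1-fold or more in VprBP sh. LAMA3, the alpha chain (ENSG00000053747.17, chr18:23689453-23956222, plus strand, hg38), had 13658, 13078 and 14973 estimated counts in Control sh against 132, 273 and 360 in VprBP sh. LAMB3, the beta chain (ENSG00000196878.15, chr1:209614870-209652425, minus strand), had 40493, 31609 and 34750 counts in Control sh against 54, 22 and 14 in VprBP sh. No VprBP sh sample came near the lowest Control sh sample for either chain. With edgeR's quasi-likelihood test and Benjamini-Hochberg adjustment, LAMB3 fell by 10.34 on the log2 scale (SE 0.44, 1297-fold, adjusted p = 3.34e-08) and LAMA3 fell by 5.96 (SE 0.23, 62.1-fold, adjusted p = 1.83e-08). Both chains together took 0.223% ± 0.0338 of the counts in Control sh against 0.0013% ± 0.000249 in VprBP sh, 171-fold less. The size of the LAMB3 decrease depended on VprBP sh replicate 1, the highest of its group, and the log2 fold change was -11.21 without it (adjusted p = 6.23e-08, edgeR).

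The sequences around the annotated starts are shown for LAMA3 and LAMB3, as chains of laminin-332 that fell, and for LAMA4 and LAMB2, as the tested laminin chains with a higher mean in VprBP sh, so that the windows can be compared. Each window is RefSeq sequence of GRCh38.p14 of 300 bases, most of it upstream of a start, written 5′ to 3′ on the strand of the gene. Capitals mark the letters TGANTCA (N is any base), the core that AP-1 factors bind, which read alike on both strands. The LAMA3 window (chr18:23872770-23873069, plus strand) belongs to a start inside the gene, 184 kb downstream of its first base. The LAMB3 window (chr1:209651325-209651624, minus strand) belongs to a start 1051 bases inside the gene. The LAMA4 window is chr6:112254518-112254817 and the LAMB2 window chr3:49133001-49133300, both on the minus strand.
LAMA3: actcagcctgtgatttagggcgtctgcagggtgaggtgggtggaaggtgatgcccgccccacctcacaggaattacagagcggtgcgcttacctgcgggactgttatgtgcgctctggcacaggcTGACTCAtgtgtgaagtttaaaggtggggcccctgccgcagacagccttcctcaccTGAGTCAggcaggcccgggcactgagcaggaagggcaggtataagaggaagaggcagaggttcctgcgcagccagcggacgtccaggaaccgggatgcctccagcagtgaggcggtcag
LAMB3: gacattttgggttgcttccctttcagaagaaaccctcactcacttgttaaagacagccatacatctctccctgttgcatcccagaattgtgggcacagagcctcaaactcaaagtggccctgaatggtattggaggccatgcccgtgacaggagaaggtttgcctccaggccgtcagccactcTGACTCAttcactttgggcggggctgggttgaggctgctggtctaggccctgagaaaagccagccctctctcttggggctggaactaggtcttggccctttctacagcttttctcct
LAMA4: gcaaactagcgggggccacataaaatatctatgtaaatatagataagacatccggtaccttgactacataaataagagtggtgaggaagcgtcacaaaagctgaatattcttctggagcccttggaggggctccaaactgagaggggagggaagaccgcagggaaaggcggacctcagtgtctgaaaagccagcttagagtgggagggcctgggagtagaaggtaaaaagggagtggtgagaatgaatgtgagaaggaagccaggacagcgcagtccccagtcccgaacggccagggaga
LAMB2: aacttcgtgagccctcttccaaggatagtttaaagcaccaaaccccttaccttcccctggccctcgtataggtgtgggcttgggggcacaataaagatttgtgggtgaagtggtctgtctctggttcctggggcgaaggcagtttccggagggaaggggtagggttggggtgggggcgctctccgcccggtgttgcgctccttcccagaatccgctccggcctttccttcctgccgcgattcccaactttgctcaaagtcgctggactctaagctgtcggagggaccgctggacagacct
The LAMA3 window holds the letters at -125 and -69 and the LAMB3 window at -67, counted from the start, while the LAMA4 and LAMB2 windows hold none. The LAMB3 window shown was chosen for holding them, and the other two windows of LAMB3 hold none. Sequences were given for 23 of the 33 members, in 30 windows, and not for ITGA3, ITGA7, ITGA9, ITGAL, ITGAX, ITGB2, ITGB3, ITGB4, LAMA1 and LAMC3. TGANTCA occurred in 3 of the 30 windows (10%), those of LAMA3, LAMB3 and ITGA5, beside 7.72% of the 34943 windows of all genes. None was found in the windows of LAMA2, LAMA5, LAMB1 and LAMC1, laminin chains that also fell. The letters GGGCGG, the core that SP1-type factors bind, searched on both strands and nowhere overlapping the TGANTCA matches shown, occurred in 18 of the 30 (60%), beside 44.9% of all windows. A match is a match of letters, and no binding was measured.

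Of the 4 chains of laminin-511 and laminin-521, 3 fell, by 4.03-fold to 9.53-fold, and LAMB2, the beta chain that sets laminin-521 apart, had a higher mean in VprBP sh. LAMA5, their common alpha chain, had 39480, 40128 and 42640 counts in Control sh against 8206, 11437 and 14541 in VprBP sh. LAMA5 fell 4.03-fold (log2 fold change -2.01, SE 0.11, edgeR adjusted p = 1.98e-07). LAMC1, their common gamma chain, had 14685, 14501 and 15946 counts in Control sh against 1601, 1618 and 2378 in VprBP sh. LAMC1 fell 9.05-fold (-3.18, SE 0.09, edgeR adjusted p = 2.88e-09). LAMB1, the beta chain of laminin-511, had 11672, 10618 and 12222 counts in Control sh against 1025, 1279 and 1790 in VprBP sh. LAMB1 fell 9.53-fold (-3.25, SE 0.11, edgeR adjusted p = 8.78e-09). All VprBP sh samples were below all Control sh samples for these 3 genes. For LAMB2 the order was the opposite, with 3541, 3078 and 3484 counts in Control sh against 4746, 5994 and 8197 in VprBP sh, and the groups did not overlap after normalization either (3584 ± 451 against 5937 ± 553 normalized counts, SD, n = 3). Its log2 fold change of 0.73 (SE 0.11, edgeR adjusted p = 0.0002) was below the 2-fold limit and it was not called.

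Of the remaining laminin chains, 2 fell, LAMA4 rose, and LAMB4 and LAMC3 did not pass the filter. LAMA1, the alpha chain of the laminin of early embryos, had 2053, 1146 and 1242 counts in Control sh against 0 in each VprBP sh sample, so that it was at least 548-fold lower, taking 3 counts in each VprBP sh sample as the floor (edgeR adjusted p = 1.45e-06). LAMA2, the alpha chain of muscle laminin, had 211, 207 and 206 counts in Control sh against 4, 3 and 7 in VprBP sh (log2 fold change -5.61, SE 0.26, edgeR adjusted p = 6.25e-08). LAMA4, the alpha chain of vessel laminins, went the other way, from 193, 123 and 142 counts in Control sh to 749, 847 and 1053 in VprBP sh. LAMA4 rose 5.15-fold (2.36, SE 0.19, edgeR adjusted p = 2.5e-06). LAMA2 and LAMA4 thus changed in opposite directions from low levels in Control sh, 8.39 ± 0.939 and 13.7 ± 4.31 normalized counts per kb of exon. LAMB4 had 13, 8 and 13 counts in Control sh against 0 in each VprBP sh sample, at least 4.12-fold lower, and it was called lower in the fit without that filter. LAMC3 had at most 8 counts in any sample. Of the 4 endothelial markers, CDH5 fell from 473 to 1.83 mean normalized counts and VWF from 160 to 7.56. PECAM1 (20.1 and 23) and TEK (2.32 and 2.85) overlapped between the groups, and the part of these markers in the LAMA4 increase was not tested. The muscle markers DES, MYOD1 and MYOG had no row in the count table.

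**Figure D2:**
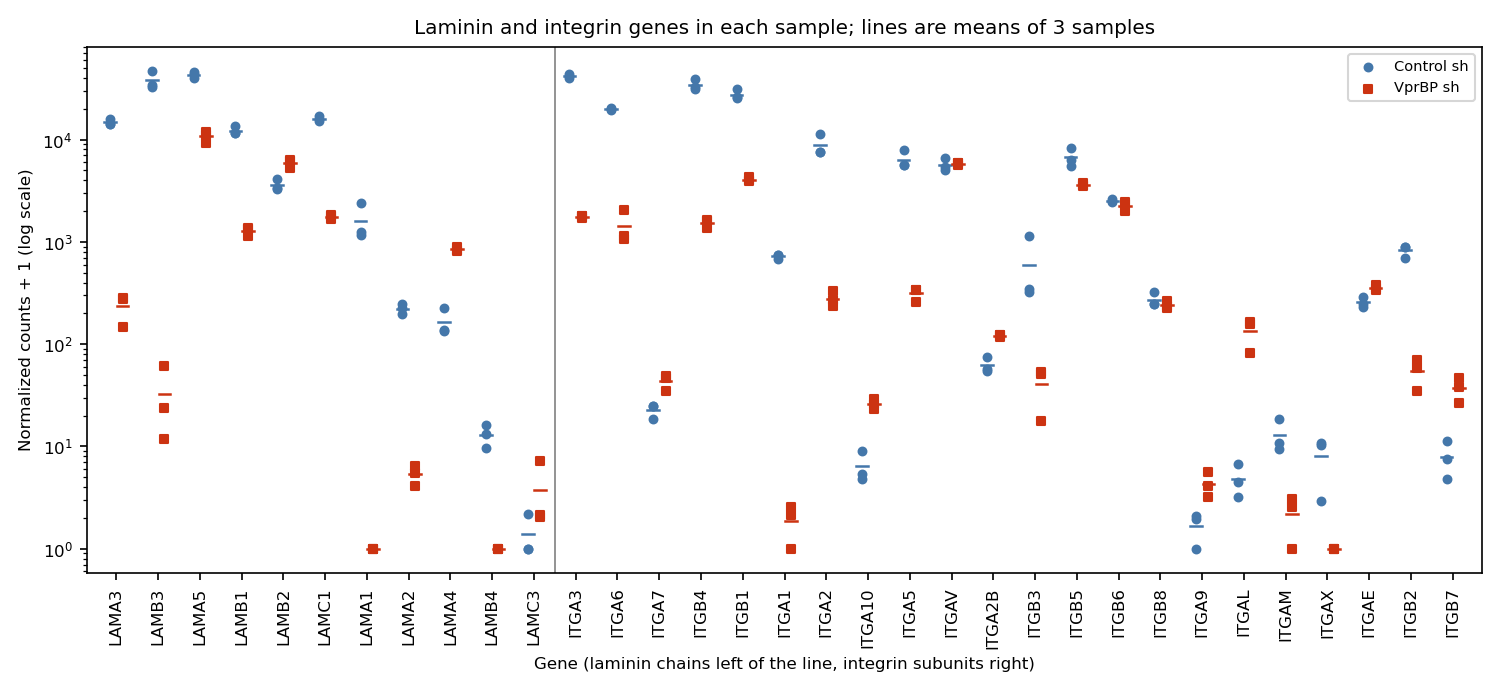
Normalized counts plus 1 on a log scale (y axis) of each of the 33 members (x axis, laminin chains left of the line, integrin subunits right) in every sample, with circles for Control sh, squares for VprBP sh and lines for the means of 3 samples. LAMB3 lies between 32946 and 46934 in Control sh and between 10.7 and 60.3 in VprBP sh, while ITGAV, ITGB6 and ITGB8 overlap.

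The integrin subunits that bind laminin fell together, apart from ITGA7, which had 15 to 63 counts per sample. ITGA3, the alpha subunit that binds laminin-332 and laminin-511 (ENSG00000005884.18, chr17:50055968-50090481, plus strand), had 37757, 38063 and 42383 counts in Control sh against 1540, 1715 and 2310 in VprBP sh. ITGA3 fell 23.8-fold (log2 fold change -4.57, SE 0.09, edgeR adjusted p = 5.16e-10). ITGB4, the beta subunit with the long tail that joins keratin filaments through plectin (ENSG00000132470.14, chr17:75721328-75757818, plus strand), had 33888, 30040 and 32957 counts in Control sh against 1218, 1582 and 2108 in VprBP sh. ITGB4 fell 22.3-fold (-4.48, SE 0.13, edgeR adjusted p = 3.68e-09). ITGA6, its only known alpha partner (ENSG00000091409.16, chr2:172427354-172506459, plus strand), had 16891, 18656 and 21147 counts in Control sh against 1850, 1032 and 1472 in VprBP sh. ITGA6 fell 14.1-fold (-3.81, SE 0.24, edgeR adjusted p = 4.38e-07). VprBP sh replicate 1 held more ITGA6 than the other two of its group (2066 normalized counts, against 1072 and 1128), and fewer of LAMA3 and LAMA5. ITGB1, the beta partner of most alpha subunits, had 27047, 23754 and 26603 counts in Control sh against 3830, 3757 and 5201 in VprBP sh, and its 6.77-fold decrease (-2.76, SE 0.11, edgeR adjusted p = 1.94e-08) was the smallest of the 4. ITGA7, the laminin receptor of muscle, had 15, 22 and 25 counts in Control sh against 30, 44 and 63 in VprBP sh and was not called (0.97, SE 0.29, edgeR adjusted p = 0.0113).

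Among the collagen-binding alpha subunits, ITGA1 and ITGA2 fell and ITGA10 rose from a very low level. ITGA2, which binds fibrillar collagen on epithelial cells and platelets, had 9741, 7004 and 8019 counts in Control sh against 293, 260 and 309 in VprBP sh. ITGA2 fell 31.9-fold (log2 fold change -5.00, SE 0.20, edgeR adjusted p = 2.43e-08). ITGA1, which prefers collagen IV, had 647, 627 and 781 counts in Control sh against 1, 0 and 2 in VprBP sh, a ratio of 763 with a 95% counting interval of 261 to 3702 (edgeR adjusted p = 3.75e-09). Both genes lie on chromosome 5, 30.1 kb apart with no protein-coding gene between them. ITGA10, a collagen receptor of cartilage, had 7, 4 and 4 counts in Control sh against 25, 24 and 29 in VprBP sh (2.20, SE 0.39, edgeR adjusted p = 0.000544), so that its increase of 4.6-fold ended at 25 ± 2.84 normalized counts.

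The subunits that bind the RGD sequence of fibronectin, vitronectin and latent TGF-beta were divided, with ITGA5 and ITGB3 lower and ITGAV, ITGB6 and ITGB8 overlapping between the groups. ITGA5, the fibronectin receptor subunit, had 6759, 5216 and 5924 counts in Control sh against 231, 326 and 442 in VprBP sh. ITGA5 fell 20.4-fold (log2 fold change -4.35, SE 0.17, edgeR adjusted p = 2.26e-08). ITGB3, the beta subunit of the vitronectin receptor, had 973, 300 and 362 counts in Control sh against 15, 51 and 66 in VprBP sh. Its decrease of 14.5-fold (-3.86, SE 0.57, edgeR adjusted p = 0.000166) rested in size on Control sh replicate 1, which lay 3.46-fold above the lowest of its group, and the log2 fold change was -3.03 without that sample (adjusted p = 0.000176). ITGAV, the alpha partner of ITGB3, ITGB5, ITGB6 and ITGB8, had 5670, 4962 and 5364 counts in Control sh against 5252, 5682 and 7306 in VprBP sh, with means of 5684 ± 784 and 5790 ± 165 normalized counts (0.03, SE 0.10, edgeR adjusted p = 0.823), and the sign of this small difference turned with the scaling. ITGB6, the epithelial activator of latent TGF-beta, had 2526 ± 102 and 2260 ± 212 normalized counts (-0.16, SE 0.09, edgeR adjusted p = 0.133), and ITGB8, which shares that ligand, 270 ± 44.1 and 241 ± 20.4 (-0.16, SE 0.15, edgeR adjusted p = 0.349), the sign of both turning with scaling by library size alone. ITGB5, a vitronectin receptor subunit, had 7168, 5819 and 5870 counts in Control sh against 3198, 3582 and 4563 in VprBP sh, groups that did not overlap but whose 1.87-fold difference was not called (-0.90, SE 0.14, edgeR adjusted p = 0.000182). ITGA2B, the platelet subunit, was at 61.1 ± 11.4 and 120 ± 3.02 normalized counts and was not called (0.97, SE 0.20, edgeR adjusted p = 0.00134). Of the 7 subunits tested here, 2 fell (28.6%, beside 22% of all genes tested) and 5 were not called.

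Leukocyte integrin subunits were low in both groups except ITGB2, ITGAE and, in VprBP sh, ITGAL. ITGAL, the alpha subunit of the lymphocyte adhesion receptor LFA-1, had 3, 2 and 6 counts in Control sh against 72, 152 and 213 in VprBP sh, a 33.8-fold increase and the highest fold of the members that rose (log2 fold change 5.08, SE 0.44, edgeR adjusted p = 4.24e-06). ITGB2, its only known beta partner, moved the opposite way, from 605, 817 and 937 counts to 30, 66 and 75. ITGB2 fell 15.4-fold (-3.94, SE 0.22, edgeR adjusted p = 2.04e-07). The antisense transcript ITGB2-AS1, which overlaps ITGB2, moved with it, from 93, 80 and 77 counts to 3, 13 and 15 (-3.18, SE 0.39, edgeR adjusted p = 4.52e-05), and reads of the pair cannot be told apart where the counting ignored strand. ITGB7, the beta subunit of gut-homing lymphocytes, had 9, 6 and 4 counts in Control sh against 23, 36 and 60 in VprBP sh (2.42, SE 0.42, edgeR adjusted p = 0.000519). ITGAE, the alpha partner of ITGB7 and receptor for E-cadherin, had 256 ± 30.6 and 356 ± 19.8 normalized counts and was not called (0.48, SE 0.13, edgeR adjusted p = 0.00751). It overlaps HASPIN, a protein-coding gene on the other strand. ITGAM had 15, 9 and 9 counts in Control sh against 0, 2 and 2 in VprBP sh, ITGAX 8, 9 and 2 and then 0 in each sample, and ITGA9 at most 6 counts in any sample, and none of the 3 passed the filter. Of the leukocyte markers, CD14 was the only one read, at 635 to 823 normalized counts in Control sh against 134 to 474 in VprBP sh. PTPRC, CD3E, SPI1 and LCP2 had no row in the count table.

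The members fell by unequal amounts, and the make-up of the chain classes differed between the groups. Levels were compared between genes as normalized counts per kb of exon. The summed level of the integrin alpha subunits was 11.1-fold lower in VprBP sh, that of the laminin beta chains 9.97-fold, that of the integrin beta subunits 5.83-fold and that of the laminin alpha chains 4.98-fold. These sums depend on the length used. They were not compared per kb of the canonical transcript, so the order of the classes holds for exon length only.

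Among the laminin beta chains, LAMB3 made up 87.3% ± 0.981 of the summed level per kb in Control sh (SD, n = 3) and 0.755% ± 0.687 in VprBP sh, which became 0.367% without VprBP sh replicate 1. LAMB2 made up 5.61% ± 0.336 in Control sh and 91.9% ± 0.627 in VprBP sh, so that the leading beta chain was a different one in each group. The share of LAMB1 was 7.09% ± 0.645 and 7.33% ± 0.101, or 17.8% in both groups with the length of the canonical transcript. LAMA5 led the alpha class in both groups, with 72.7% ± 1.15 and 89.6% ± 0.623, and next came LAMA3 in Control sh (24.4% ± 0.683) and LAMA4 in VprBP sh (8.46% ± 1.05). Among the integrin alpha subunits, ITGA3 led in Control sh at 44.3% ± 0.973 and ITGAV on average in VprBP sh at 34.7% ± 2.6, up from 3.05% ± 0.221, while the level of ITGAV itself overlapped between the groups (294 ± 40.6 and 299 ± 8.53 per kb). The share of ITGA6 was 31.2% ± 2.41 in Control sh and 24.1% ± 7.17 in VprBP sh. In VprBP sh replicate 1 ITGA6 was ahead of ITGAV (309 against 303 per kb). Among the beta subunits, ITGB4 held 58.8% ± 0.457 in Control sh and 15.3% ± 1.01 in VprBP sh, and ITGB5 with ITGB6 held 37.2% ± 1.51 and 26.3% ± 1.61 in VprBP sh. Which beta subunit leads depended on the length used, since with the length of the canonical transcript ITGB1 led both groups, at 46.9% in Control sh and 40.1% in VprBP sh.

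**Figure D3:**
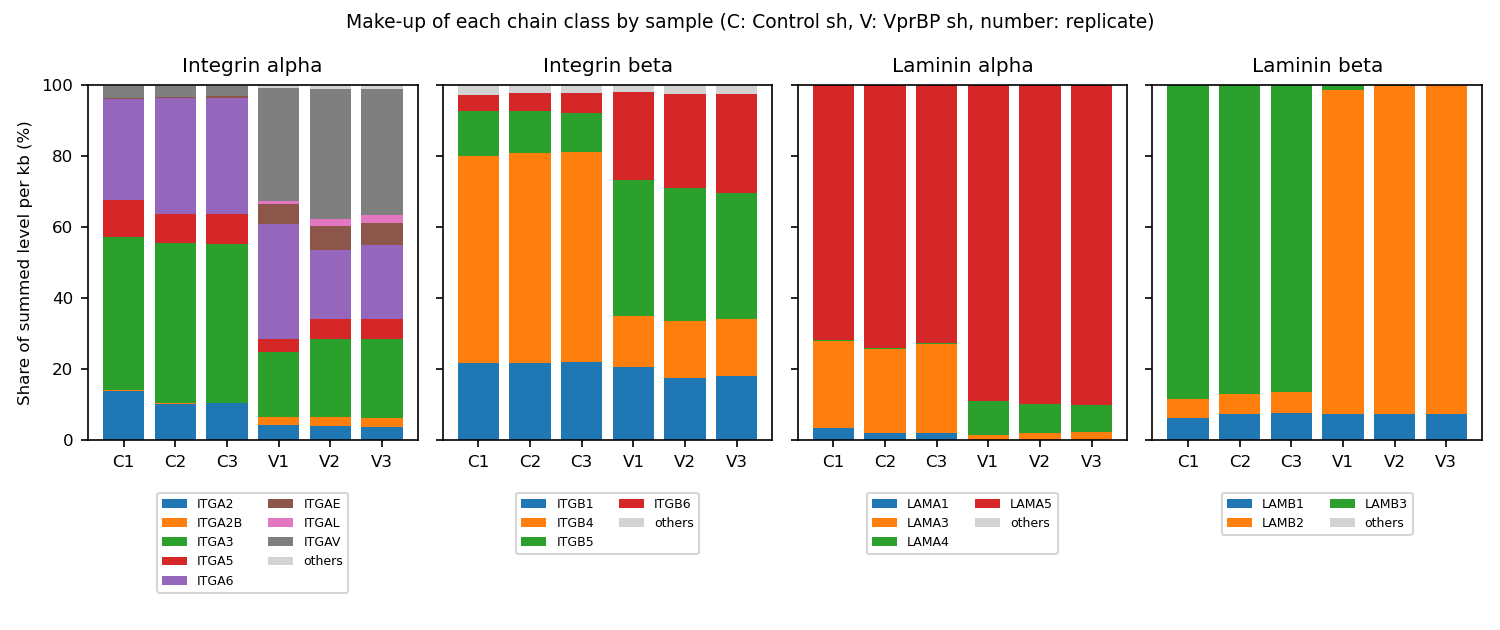
Share in percent (y axis) of each gene in the summed level per kb of its chain class, 1 stacked bar per sample (C for Control sh, V for VprBP sh, with the replicate number) and 1 panel for each of 4 classes. The 3 bars of a group resemble each other except for ITGA6, which is larger in V1 (309 per kb) than in V2 and V3 (161 and 169). LAMB3 (87.3% on average) fills most of the Control sh bars of the laminin beta panel where LAMB2 (91.9%) fills the VprBP sh bars.

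Ratios of members within a sample do not depend on scaling between samples, and 9 pairs were compared on the log2 scale of counts per kb. The ratio of LAMB3 to LAMB2 was 4.08, 3.92 and 3.88 in Control sh and -5.89, -7.53 and -8.63 in VprBP sh, and its mean fell by 11.31. That of LAMA3 to LAMA5 went from -1.57 ± 0.06 (SD, n = 3) to -5.58 ± 0.34. LAMA3 and LAMB3 were thus lower relative to these chains of other laminins in every VprBP sh sample. Among integrins, ITGB4 to ITGB1 went from 1.43 ± 0.01 to -0.29 ± 0.22, ITGB6 to ITGB1 from -2.10 ± 0.13 to 0.48 ± 0.20 and ITGA6 to ITGAV from 3.36 ± 0.22 to -0.56 ± 0.51. The differences were smaller for ITGA6 to ITGA3 (0.69), ITGA2 to ITGA5 (-0.63) and ITGB4 to ITGA6 (-0.60), where the VprBP sh samples were spread by 0.55, 0.45 and 0.68 (SD). The groups did not overlap for any of the 9 pairs, and every two-sided exact permutation test reached p = 0.1, the floor of this design, and 0.1 after Benjamini-Hochberg adjustment over the 9 pairs.

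**Figure D4:**
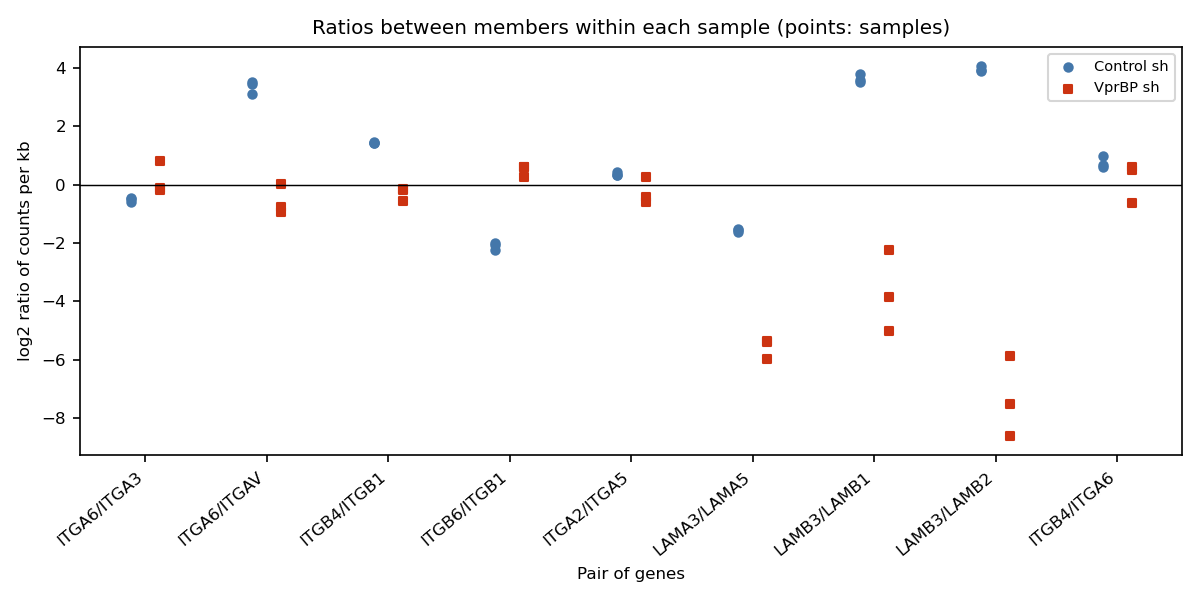
Log2 ratio of counts per kb (y axis) of 9 pairs of members (x axis) in each sample, with circles for Control sh and squares for VprBP sh. LAMB3 to LAMB2 lies at 3.88 to 4.08 in Control sh and at -8.63 to -5.89 in VprBP sh, while ITGB4 to ITGA6 lies at 0.62 to 0.99 and at -0.62 to 0.60.

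Levels were also read for the known pairs and trimers, counting a complex as having transcripts for all its chains where each chain had a mean of at least 100 normalized counts. Of 6 common laminin trimers, 6 met this in Control sh and 4 in VprBP sh, where laminin-111 and laminin-211 no longer did and laminin-411, laminin-421, laminin-511 and laminin-521 did. Of 19 integrin pairs with both subunits in the table, 11 met it in Control sh and 9 in VprBP sh, the pairs of ITGA1 with ITGB1 and of ITGAV with ITGB3 no longer doing so. The least abundant chain of laminin-521 was LAMB2 at 522 normalized counts per kb in Control sh and LAMC1 at 209 per kb in VprBP sh. In the hemidesmosome integrin ITGA6 was the lower subunit in Control sh, at 2990 ± 53.6 per kb against 5087 ± 634 for ITGB4. In VprBP sh the pair did not differ beyond its spread (213 ± 83.5 and 228 ± 23.1), and in replicate 1 ITGA6 was the higher of the pair. In the pair of ITGAV and ITGB6, ITGAV stood at 294 and 299 per kb of exon and ITGB6 at 437 and 391. Per kb of the canonical transcript the order was the opposite, with ITGAV at 807 and 822 and ITGB6 at 544 and 487. These are transcript levels, and no protein or assembled complex was measured.

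Genes that work with integrins and laminins were read from fixed lists. In the hemidesmosome and laminin receptor list 9 genes were tested. Of these, 5 fell (55.6%, beside 22% of all genes tested) and 4 were not called. The median log2 fold change was -1.14, beside 0.08 for all genes tested. COL17A1, the hemidesmosome collagen that binds ITGA6 and laminin-332, had 29204, 25132 and 28462 counts in Control sh against 1, 2 and 3 in VprBP sh (-13.83, SE 0.21, edgeR adjusted p = 2.47e-10). PLEC, the plectin that ties ITGB4 to keratin, fell by 2.11 on the log2 scale, from 28433 ± 4541 to 6573 ± 559 normalized counts. The other laminin receptors that fell were BCAM (-3.01), SDC4 (-1.78) and DAG1 (-1.14), with edgeR adjusted p-values of 3.57e-06, 7.46e-05 and 9.83e-07. The 4 not called, named after their values were seen, were DST (-0.20, groups overlapping), CD151 (-0.40), SDC1 (-0.40) and ERBIN (0.52).

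Of the 16 basement membrane genes tested, 11 fell (68.8%, beside 22% of all genes tested) and 3 rose (18.8%, beside 24.5%). The median was -2.92. NID1, the nidogen that links laminin to collagen IV, had 2711, 2436 and 2808 counts in Control sh against 0 in each VprBP sh sample, at least 964-fold lower. SPARC, a collagen-binding matrix protein, had 5584, 6526 and 7458 counts in Control sh against 0, 0 and 1 in VprBP sh, a ratio of 21810 with a 95% counting interval of 3914 to 861450. Of the 6 collagen IV chains, COL4A4 (-5.69), COL4A2 (-4.98), COL4A6 (-3.76), COL4A1 (-3.27) and COL4A3 (-2.32) fell, while COL4A5 rose (1.85, from 872 ± 73.6 to 3137 ± 359 normalized counts). COL7A1, the collagen of the anchoring fibrils that attach to laminin-332, fell by 4.77 on the log2 scale. The others that rose were NTN1 (2.95) and NTN4 (1.81), netrins with laminin-like domains, and COL4A3, COL4A4, COL4A5, NTN1 and NTN4 were named after their values were seen. AGRN, which binds the laminin coiled coil, was not called (0.26, SE 0.17, edgeR adjusted p = 0.205).

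Of the 26 non-laminin ligands tested, 15 fell (57.7%, beside 22% of all genes tested) and 5 rose (19.2%, beside 24.5%). The median was -1.63. FN1, the fibronectin bound by ITGA5 with ITGB1, had 25544, 30687 and 34531 counts in Control sh against 173, 301 and 399 in VprBP sh. FN1 fell 117-fold (-6.87, SE 0.19, edgeR adjusted p = 3.15e-09). TGFB1, whose latent form binds the integrins of ITGAV with ITGB6 or ITGB8, fell by 6.11 on the log2 scale, TNC fell by 5.65 (-6.91 without VprBP sh replicate 1, the highest of its group), TGFBI fell by 5.44 and THBS1 fell by 2.82. CCN2 (0.83) and CCN1 (0.42), named after their values were seen, were not called. Both were highest in VprBP sh replicate 1, CCN2 at 3029 normalized counts against 57.1 and 48.3. Without that sample CCN2 was at -3.47 (edgeR adjusted p = 3.99e-07) and CCN1 at -0.29 (edgeR adjusted p = 0.00201). NPNT, a ligand of the ITGA8 receptor, rose from 236 ± 2.79 to 1623 ± 125 normalized counts (2.78, SE 0.10, edgeR adjusted p = 1.41e-08). Of the 39 focal adhesion adaptors and kinases tested, 17 fell (43.6%, beside 22% of all genes tested) and 3 rose (7.69%, beside 24.5%). Another 19 were not called, and the median was -0.67. FLNC, a filamin, had 5949, 5379 and 5574 counts in Control sh against 0 in each VprBP sh sample, at least 2056-fold lower. TNS4 (-5.30), PTK2B (-3.69) and PXN (-2.57), all of them parts of integrin signalling, fell, while TNS2 rose (4.45). FERMT1, the kindlin of epithelia that activates integrins, fell from 3718 ± 309 to 418 ± 46.8 normalized counts, whereas its relative FERMT2, named after its values were seen, rose from 664 ± 13.6 to 3119 ± 402 (2.23, SE 0.11, edgeR adjusted p = 7.07e-08).

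**Figure D5:**
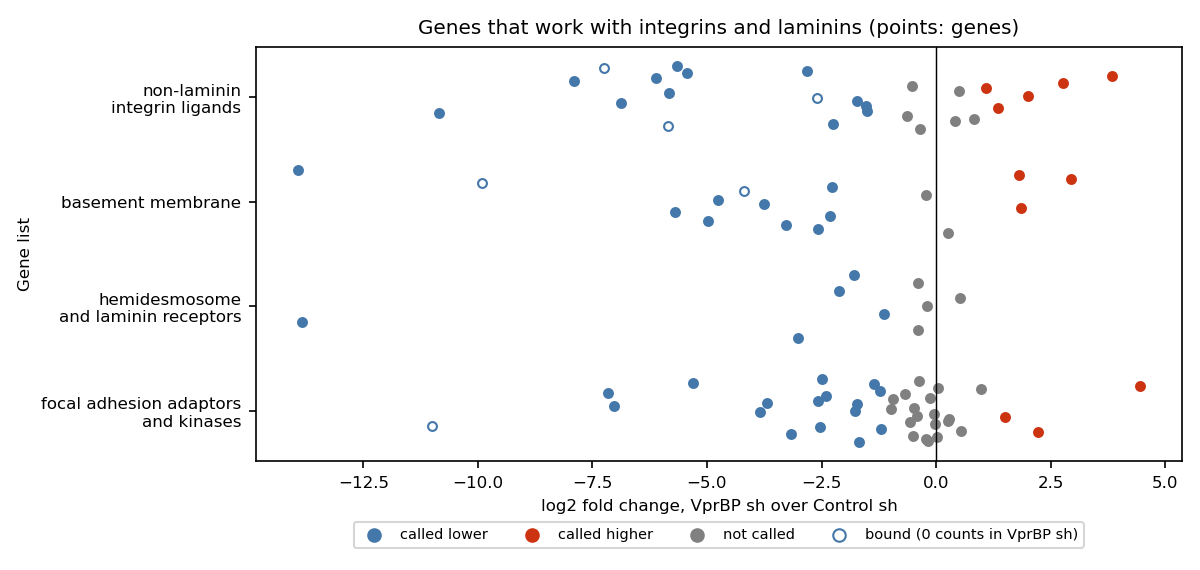
Log2 fold change of VprBP sh over Control sh (x axis) of each tested gene in 4 lists (y axis, points are spread vertically for sight), coloured by call, with open points for bounds where all VprBP sh samples had 0 counts. The hemidesmosome list has 5 of its 9 genes called lower, and the adaptor list has 17 lower and 3 higher of 39. Of all genes tested, 22% were called lower and 24.5% higher.

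In the genome, 28 of the 33 members overlap another annotated gene and 9 overlap a protein-coding one, ITGA1 (with PELO) and ITGB3 on the same strand. Whether the counting used strand is not given in the sources used here, so the levels of these members may include reads of their neighbours. LAMB1 and LAMB4 are adjacent on chromosome 7 (20.3 kb), and ITGAM and ITGAX on chromosome 16 (22.2 kb). The processed pseudogene ITGB1P1, which can share reads with ITGB1, had 89, 84 and 105 counts in Control sh against 14, 12 and 26 in VprBP sh.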

How the data were processed

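RNA-seq was read for 6 samples of cells labelled G361, 3 Control sh and 3 VprBP sh, grouped and numbered from the titles in the labels. The authors deposited 1 table of estimated counts per gene, neither normalized nor pooled, whose genes all sum to at least 10 across the 6 samples and in which 59.9% of the values are whole (within 1e-06). Per the methods, single-end reads were aligned with STAR to hg38 under GENCODE annotation and quantified in Partek Flow, and the submitters' processing notes name Partek and hg38. Versioned gene IDs of 30 of the 33 members match GENCODE 44, whereas the methods name an earlier release, so the release behind the table is unclear. The labels name a SMARTER library kit and the methods a stranded KAPA kit. The number of columns belonging to other samples was 0.

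Counts were rounded, which the design allowed for estimated counts, and tested with edgeR 4.0.16 in R 4.3.3 (quasi-likelihood test, upper quartile factors at 0.75, filterByExpr with a minimum count of 10, all 6 samples, no replicate block), in place of the algorithm for single genes in Partek Flow. P-values were adjusted by Benjamini-Hochberg over 16756 genes. Normalized counts are rounded counts divided by the upper quartile size factor. A group at 0 counts in all samples was set to 3 counts per sample to give a bound, and where a group totals 1 to 3 counts the ratio is given with an exact 95% counting interval. Lengths and overlaps came from GENCODE 44, sequences from RefSeq on GRCh38.p14. Figures and tables used Python 3.11.15, numpy 2.4.6, pandas 2.3.3 and scipy 1.17.1. The tests were tried on simulated counts.

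Members and lists were chosen with earlier results of these data known, and the textbook pairs and trimers were listed after the table was seen. Named genes were members that were called or whose higher group averaged 100 normalized counts or more, the other members by their counts, up to 6 called genes per partner list with the largest change among those averaging 1000 or more, DCAF1, and the markers. Alternatives were TMM factors, library size alone, DESeq2 1.42.0, limma-voom (limma 3.58.1), no filter, a filter of 10 counts per sample, the glmTreat test against a 2-fold change, a replicate block and leaving out each sample. A call at any fold, canonical transcript lengths, replicates 2 and 3 summed and partner genes without each sample were added after seeing the data. Ratios of counts not divided by length were not run, since the length shifts both groups alike. The authors' RT-qPCR, ChIP and cell assays were not analysed here, and 1 member with the results that need it is not reported here.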

Additional observations from a re-analysis of the deposited data

How the results depend on the processing

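Of the 28 tested members 20 were called, 21 with TMM factors or DESeq2, 22 with library size alone, 20 with limma-voom or the test against a 2-fold change, 23 without a filter (gaining LAMB4, ITGAM and ITGAX, all lower), 14 of 22 when at least 10 counts were asked of every sample (ITGA1, ITGA10, ITGAL, ITGB7, LAMA1 and LAMA2 did not pass that filter), 21 to 22 leaving out 1 sample (LAMB4 gained as lower without Control sh replicate 2 or any 1 VprBP sh sample), 23 with replicates 2 and 3 summed (gaining LAMB4, ITGAM and ITGB5, all lower), and 25 at any fold change, beside 76.4% of all genes. Over all genes that stricter filter left 4690 calls of 13103 tested, in place of 7778. The groups share replicate numbers, but same-numbered samples did not deviate together (correlations of -0.168, -0.0558 and -0.12 over 13175 genes). With 3 samples per group these correlations cannot settle whether same-numbered samples share a culture or day, and the labels do not say so. For some members replicates 2 and 3 lay closer together than to replicate 1, as for ITGA2 in Control sh (7614 and 7603 normalized counts, against 11290). This did not hold for ITGA1 in Control sh (682 and 740, against 750). If replicates 2 and 3 are not independent, the SEs and adjusted p-values given for single genes are too small. The replicate block called the same 20 members, and 7686 genes in all.

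Scaling moved the median of all genes' log2 fold changes from 0.08 to -0.01 with TMM factors, -0.04 with DESeq2 and 0.29 with library size alone, and that of the members from -2.97 to -3.07, -3.09 and -2.76. The 3 overlapping members turned sign, ITGAV to -0.07 with TMM factors, -0.10 with DESeq2, -0.02 and -0.05 without Control sh replicate 2 or 3 (range over left-out samples -0.05 to 0.14) and -0.04 with replicates 2 and 3 summed, and ITGB6 and ITGB8 to 0.05 each with library size alone. ITGB5 became called with TMM factors, with DESeq2 (-1.03), without Control sh replicate 3 (-1.03) and with replicates 2 and 3 summed, ITGA2B at 1.18 with library size alone and 1.13 without Control sh replicate 1, and ITGA7 at 1.18 with library size alone and 1.04 to 1.11 without 1 of 3 samples. The other 397 values of single members kept their direction and their side of the threshold.

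With the length of the canonical transcript, which by construction leaves each gene's fold change alone, the shares in Control sh and VprBP sh became 54.9% for ITGA3 in Control sh, 22.1% and 14.2% for ITGA6, 5.17% and 48.3% for ITGAV, 46.9% and 40.1% for ITGB1, 37.2% and 9.63% for ITGB4, 3.5% and 18% for ITGB6, 25.7% for LAMA3 in Control sh, 70.4% and 87% for LAMA5, 5.16% and 81.6% for LAMB2, and 77% for LAMB3 in Control sh. With that length ITGB5 was at 9.61% in Control sh and 29.9% in VprBP sh, and LAMB1 at 17.8% in both. The log2 differences of the 9 ratios kept their sign without any 1 sample, ITGB4 to ITGA6 ranging from -0.82 to -0.21 and ITGA6 to ITGA3 from 0.37 to 0.87. Below about 3 counts a level cannot be told from 0 at this depth, which limits ITGA1, LAMA1, LAMB4 and ITGAX in VprBP sh.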

Other observations

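Other transcripts named after members were read for comparison. ITGA9-AS1 had 23, 34 and 41 counts in Control sh against 68, 48 and 75 in VprBP sh and was not called (log2 fold change 0.83, SE 0.27, edgeR adjusted p = 0.0192), while ITGA9 itself had at most 6 counts in any sample. ITGB1-DT, a divergent transcript at the start of ITGB1, had 21, 17 and 8 counts in Control sh against 0 in each VprBP sh sample, at least 5.75-fold lower with 3 counts per sample as the floor, and was not tested. ITGB8-AS1 overlapped between the groups, with 21, 22 and 24 counts in Control sh against 16, 26 and 27 in VprBP sh (-0.11, SE 0.30, edgeR adjusted p = 0.739). LAMA4-AS1, antisense to LAMA4, had 0, 0 and 2 counts in Control sh against 3, 4 and 6 in VprBP sh, too few to test.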
